A study of Homo sapiens with 4 samples.

Results

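Chromosome 7 held 116 of the 4148 S100A10 peak intervals called in HCT116 PGCCs with daughter cells and 141 of the 1380 called in LoVo PGCCs with daughter cells. These intervals were all the lines of the deposited peak lists on chromosome 7, and every one of them had 1 summit. The chromosome was chosen by its density of intervals in LoVo, and the scores, positions and genes below come from the same lists, so all values are descriptions without a test. LoVo had fewer intervals than HCT116 in the whole genome and more on chromosome 7, which held 10.2% of all LoVo intervals and 2.80% of all HCT116 intervals.

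HCT116 and LoVo are established human colorectal cancer cell lines, and PGCCs are polyploid giant cancer cells, which the study induced with the hypoxia mimic CoCl2 and analysed together with their daughter cells. Chromatin was precipitated with an antibody to S100A10 and sequenced beside input DNA, with a single ChIP library and a single input library per cell line. All 4 libraries came from treated cells, and the labels give CoCl2 at 535.5 μM for 48 h and different lots of the antibody in the cell lines. The study's methods give a lower dose, a wider range of hours and repeated treatment, so the exact treatment of these cells is uncertain. No library of untreated cells and no replicate was analysed here, so no value has a replicate error, and cell line, antibody lot and library cannot be told apart.

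S100A10 belongs to the S100 family of small proteins and is best known as the partner of annexin A2 at the plasma membrane. ChIP-seq finds the sequence that a protein lies on, directly or through other proteins, as places where ChIP fragments pile up above the input. Where a stretch of a chromosome gives more fragments, ChIP and input both rise there, which is why the peak caller sets each summit against a local input background. The number of copies of chromosome 7 in these cells was not measured, and its part in the values below was not tested.

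A few sequences show where intervals of chromosome 7 met a promoter, since most lay inside gene bodies far from a start site. They are taken from RefSeq on GRCh38.p14 and cover the 250 bases before the start site, 5′ to 3′ on the strand of the gene, with the bases inside the interval in capitals. The first 3 belong to HCT116 intervals and the last to a LoVo interval.
FOXK1, chr7:4682045-4682294, plus strand: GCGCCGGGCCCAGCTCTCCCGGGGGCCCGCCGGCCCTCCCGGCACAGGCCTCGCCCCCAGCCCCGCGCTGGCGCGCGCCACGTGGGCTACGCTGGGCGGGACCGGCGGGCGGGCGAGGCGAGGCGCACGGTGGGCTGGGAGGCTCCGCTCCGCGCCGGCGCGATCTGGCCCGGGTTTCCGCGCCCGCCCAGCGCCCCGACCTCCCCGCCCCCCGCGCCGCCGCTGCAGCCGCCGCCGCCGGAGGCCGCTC
RABGEF1, chr7:66654317-66654566, plus strand: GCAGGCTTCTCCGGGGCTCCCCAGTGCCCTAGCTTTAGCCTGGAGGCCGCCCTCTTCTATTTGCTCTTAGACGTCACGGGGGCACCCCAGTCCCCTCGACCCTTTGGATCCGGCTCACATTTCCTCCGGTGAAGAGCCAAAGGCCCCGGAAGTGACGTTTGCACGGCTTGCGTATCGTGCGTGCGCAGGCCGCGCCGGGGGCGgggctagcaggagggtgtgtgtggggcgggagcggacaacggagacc
LOC124901796, chr7:158856523-158856772, minus strand: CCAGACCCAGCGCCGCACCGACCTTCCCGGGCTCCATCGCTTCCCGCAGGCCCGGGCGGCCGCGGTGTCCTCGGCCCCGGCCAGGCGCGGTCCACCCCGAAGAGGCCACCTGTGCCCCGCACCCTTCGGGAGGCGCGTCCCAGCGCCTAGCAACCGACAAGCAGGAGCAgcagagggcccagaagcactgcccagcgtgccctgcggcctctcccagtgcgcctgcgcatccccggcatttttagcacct
KCNH2, chr7:150955805-150956054, minus strand: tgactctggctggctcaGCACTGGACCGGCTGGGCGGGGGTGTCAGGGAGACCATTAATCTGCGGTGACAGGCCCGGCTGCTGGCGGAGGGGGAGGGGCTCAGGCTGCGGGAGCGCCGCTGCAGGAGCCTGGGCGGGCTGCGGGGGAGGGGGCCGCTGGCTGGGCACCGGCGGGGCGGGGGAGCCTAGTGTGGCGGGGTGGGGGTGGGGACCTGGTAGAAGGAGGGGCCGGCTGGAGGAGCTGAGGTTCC

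FOXK1 encodes a forkhead transcription factor, RABGEF1 an exchange factor for a Rab GTPase of early endosomes, and KCNH2 the hERG potassium channel of the heart. LOC124901796 is an RNA gene that faces DYNC2I1, which encodes a subunit of the dynein of cilia. The interval covered all 250 bases shown for FOXK1, 233 for KCNH2, 203 for RABGEF1 and 169 for LOC124901796. The share of G and C was 85.6% for FOXK1, 74.4% for KCNH2, 66.4% for RABGEF1 and 73.2% for LOC124901796. Over all 9 promoters of the chromosome that an interval overlapped, the median was 69.6%, and 2 of the 3 in LoVo had 56.4% (HOXA-AS3) and 57.2% (EN2-DT). In HOXA-AS3, EN2-DT and DYNC2I1 none of the 250 bases measured lay inside the interval. LOC100996437 and RABGEF1 shared an interval, as did DYNC2I1 and LOC124901796. The median is thus not that of the sequence under the intervals. The median over the 33725 autosomal promoters in the table was 58.4%. All 4 intervals were weak, at 8 tags and a −log10 q of 0.57 for each of the 3 HCT116 intervals and at 9 tags and a −log10 q of 0 for the LoVo interval at KCNH2. Here a tag is 1 ChIP read kept by the authors' filters, extended to the fragment length, that covers the summit. The value called −log10 q is taken as the peak caller's score after correction for multiple testing, with 0 as its floor.

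The only microRNA hairpin under an interval, of the 68 on chromosome 7 in the RefSeq table, was MIR182. It lay wholly inside the HCT116 interval chr7:129770324-129770596, with 6 tags and a fold enrichment of 2.85, at the floor of −log10 q. No LoVo interval overlapped a hairpin. The mature sequences are shown with the seed, bases 2 to 8, in capitals, since the seed selects the targets of a microRNA.
hsa-miR-182-5p: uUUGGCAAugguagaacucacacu
hsa-miR-182-3p: uGGUUCUAgacuugccaacua

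PTPRN2 held more LoVo intervals than any other gene of the chromosome, and it is the gene of chromosome 7 that the study followed by PCR. The primers for it are given below as designed, 5′ to 3′, and their place in the gene was not determined here.
PTPRN2 sense primer: gaagcccgacccacaacaaa
PTPRN2 antisense primer: cctctcacatccgccatcct

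The LoVo intervals were not spread evenly over chromosome 7. The last 10.2 Mb of the long arm, from 149 Mb to the end, held 100 of the 141 (70.9%), or 9.77 per Mb with a 95% Poisson interval from 7.95 to 11.9. The 57 Mb of the short arm before the pericentromere held 20 (0.351 per Mb, 0.214 to 0.542), and the 86 Mb between 63 and 149 Mb held 21 (0.244 per Mb, 0.151 to 0.373). The boundary at 149 Mb is where the first LoVo run of at least 10 intervals begins, chosen after the values were seen, and these intervals cover counting error only. The rates of both other stretches lay far below that of the end of the long arm.

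HCT116 intervals were also denser at the end of the long arm, to a smaller degree. They numbered 37 on the short arm before 57 Mb (0.649 per Mb), 48 between 63 and 149 Mb (0.558 per Mb) and 23 from 149 Mb to the end (2.25 per Mb, 1.42 to 3.37). There were thus 4.35 LoVo intervals for each HCT116 interval past 149 Mb, against 0.541 on the short arm and 0.438 in the middle of the long arm. The pericentromeric sequence from 57 to 63 Mb, kept apart, held 8 HCT116 intervals and no LoVo interval. A count of 0 of 141 allows a share of up to 2.13%.

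In windows of 5 Mb from end to end, 57 to 63 Mb left out, LoVo intervals lay in 15 of the 32 windows (46.9%) and HCT116 intervals in 25 (78.1%). Over all 587 autosomal windows the shares were 31.9% in LoVo and 81.1% in HCT116. The LoVo count was above the HCT116 count in 7 windows of chromosome 7 (21.9%), while this was so in 6.47% of all autosomal windows. Window 32, from 155 Mb to the end, held 63 LoVo intervals, the highest count of any autosomal window, and 12 HCT116 intervals. Window 31 held 25 LoVo and 10 HCT116 intervals, and window 30 held 14 and 3. The next LoVo counts were 8 in window 21, 7 in window 1 and 6 in windows 2 and 26. The remaining LoVo windows held at most 3 intervals, and 17 held none.

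**Figure D1:**
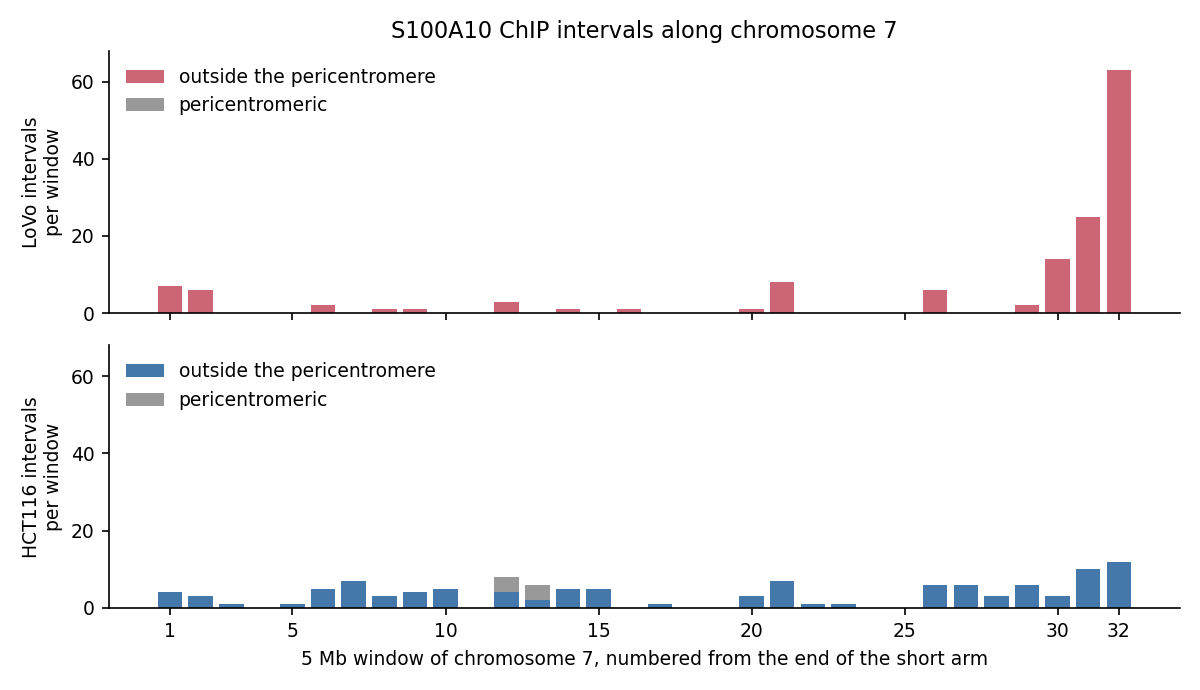
Number of S100A10 ChIP intervals (y axis) in each 5 Mb window of chromosome 7 (x axis, numbered from the end of the short arm) in LoVo (top) and HCT116 (bottom), with pericentromeric intervals in grey. The LoVo bars rise to 14, 25 and 63 in windows 30 to 32, where the HCT116 bars reach 3, 10 and 12.

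Set beside the ends of the other autosomes, the last 10 Mb of chromosome 7 had the highest LoVo count. It held 100 LoVo intervals, while the other 42 ends of the same length had a median of 1 and at most 61. In HCT116 it held 23, the rank 7 among all ends, and the others had a median of 9.5 and at most 132. The first 10 Mb of chromosome 7 held 13 LoVo and 7 HCT116 intervals, at ranks 4 and 31. The windows of other autosomes in which LoVo exceeded HCT116 by more than 10 intervals were the first 5 Mb of chromosome 5, with 42 against 3, the window from 35 to 40 Mb of chromosome 12, with 27 against 1, and that from 55 to 60 Mb of chromosome 6, with 14 against 3.

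Whether the LoVo density was raised along the whole chromosome was asked by leaving out the crowded sequence. A dense run was defined as at least 5 intervals with gaps of at most 500 kb. Over all its sequence chromosome 7 held 0.885 LoVo intervals per Mb (0.745 to 1.04), 2.95 times the 0.301 of the other autosomes together. Outside runs and 57 to 63 Mb, 31 LoVo intervals remained, at 0.213 per Mb (0.145 to 0.302), which was 2.02 times the 0.105 (0.0934 to 0.118) of the other autosomes outside their runs. Chromosome 7 was then at rank 4 of 22, and the other autosomes ranged from 0.0175 to 0.278. When the first and last 10 Mb of every autosome were also left out, an addition made after the values were seen, 18 LoVo intervals remained at 0.136 per Mb (0.0805 to 0.215). The rate was 1.36 times the 0.1002 (0.0876 to 0.114) elsewhere, with overlapping ranges, and 6 autosomes were higher. Among the 18 were 3 neighbouring pseudogene intervals just short of 57 Mb, described below, so a single locus was counted 3 times. Leaving out only 149 Mb to the end of chromosome 7 gave a ratio of 0.915. That ratio kept the runs and ends of the other autosomes, so it does not compare like sequence.

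The same steps gave HCT116 no such excess. Chromosome 7 had 0.728 HCT116 intervals per Mb, 0.599 times the 1.22 of the other autosomes. Outside runs it had 0.562 (0.448 to 0.696) against 0.505 (0.478 to 0.533), a ratio of 1.11, and without the chromosome ends the ratio was 0.998.

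**Figure D2:**
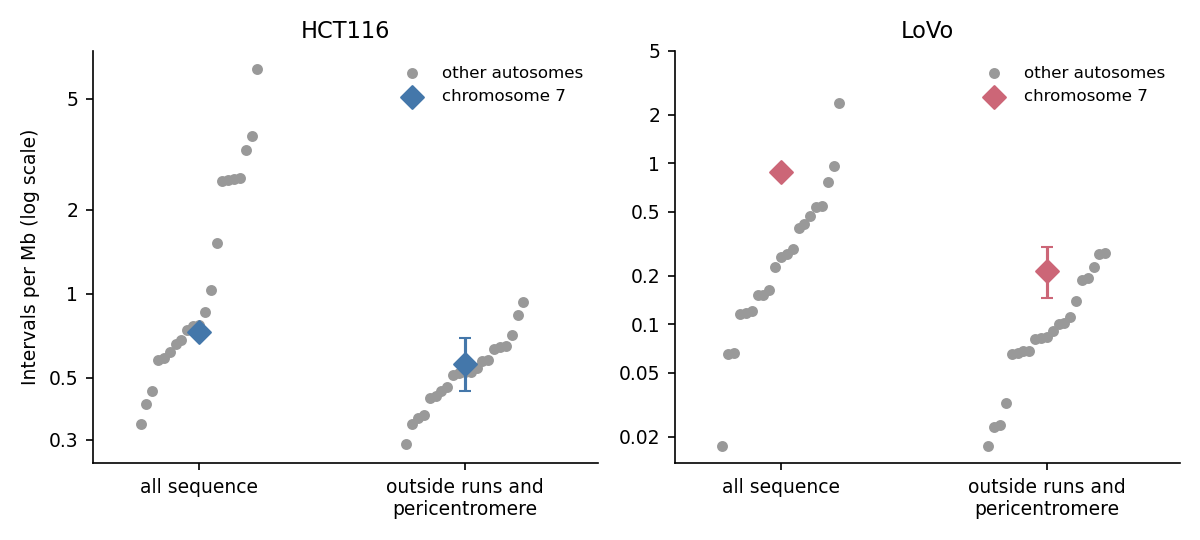
Intervals per Mb (y axis, log scale) of chromosome 7 (diamond) and of each other autosome (grey points) in HCT116 and LoVo, over all sequence and outside dense runs (on chromosome 7 also outside the pericentromere), with bars for the 95% Poisson interval. LoVo chromosome 7 falls from 0.885 to 0.213 when runs are left out, while HCT116 chromosome 7 stays among the other autosomes.

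Runs held 110 of the 141 LoVo intervals of chromosome 7 (78.0%, 95% Wilson interval 70.5 to 84.1), and the share over all autosomal LoVo intervals was 67.2%. In HCT116 they held 24 of 116 (20.7%, 14.3 to 28.9), against 59% over the autosomes. LoVo had 6 runs on chromosome 7 and HCT116 had 4.

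The last 4 LoVo runs held all 100 intervals past 149 Mb. The run chr7:149293891-151440178 held 25 intervals, of which 23 lay in genes, among them ZNF467, SSPOP, ACTR3C, KCNH2, ABCB8 and WDR86. The run chr7:152936920-154024444 held 11, with 4 in the genes DPP6 and LOC105375579. The run chr7:154658560-156197181 held 13, in DPP6, EN2, EN2-DT, RBM33-DT and 2 other RNA genes or between genes. The run chr7:156935305-159096850 held 51, of which 47 lay in genes, mostly PTPRN2 but also DNAJB6, DYNC2I1 and VIPR2. HCT116 had 5, 2, 3 and 8 intervals within the same 4 spans, and none of them overlapped a LoVo interval. The other LoVo runs had 5 intervals each. One, chr7:100552403-101000615, covered ACTL6B, AGFG2, EPHB4 and MUC12, and the other, chr7:128084534-128397912, lay over IMPDH1, LOC107986845 and SND1.

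Of the 4 HCT116 runs, 2 lay over LoVo runs. The 4 were chr7:30230993-31717089 with 5 intervals, over ADCYAP1R1, PDE1C and 2 RNA genes, chr7:100804941-101000890 with 7, over ACHE, EPHB4, MUC3A, MUC12 and LOC105375431, chr7:131117283-132366292 with 6, over MKLN1, PLXNA4 and PLXNA4-AS1, and chr7:158147429-158989974 with 6, over PTPRN2 and DYNC2I1. Thus the mucin genes and the PTPRN2 end of the long arm held a run in both cell lines.

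**Figure D3:**
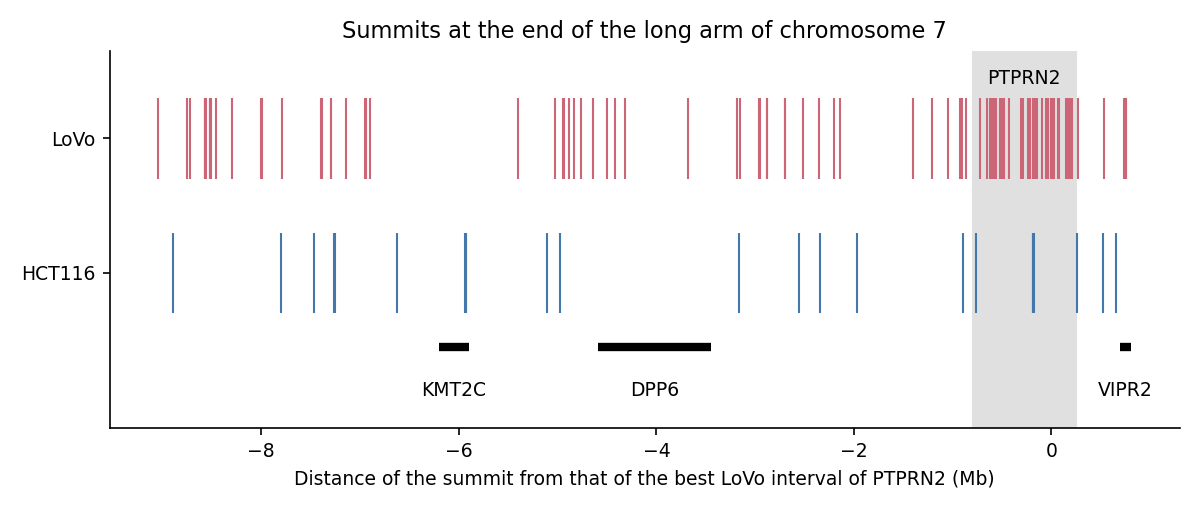
Summits from 149 Mb to the end of chromosome 7 (one line each) in LoVo and HCT116, placed by their distance in Mb from the summit of the best LoVo interval of PTPRN2 (x axis), with PTPRN2 shaded and DPP6, KMT2C and VIPR2 as bars. The 100 LoVo summits form 4 groups with gaps between them and crowd over PTPRN2, and the 23 HCT116 summits are spread more thinly.

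PTPRN2, a receptor-type tyrosine phosphatase-like protein of secretory vesicles, is a long gene (chr7:157539056-158587823). It overlapped 40 LoVo intervals, 28.4% of those on the chromosome, and 4 HCT116 intervals. The LoVo intervals lay in all 10 equal parts of the gene from its lower to its upper coordinate, with 1, 4, 5, 2, 2, 7, 4, 7, 2 and 6 intervals. The HCT116 intervals lay in the first of these parts, with 1, and the sixth, with 3. Their summits had a median of 6 tags, and 3 of the 4 were at the floor of −log10 q. The median gap between LoVo intervals was 13.6 kb, and together they covered 16.5 kb, or 1.57% of the gene. Their summits had from 8 to 35 tags with a median of 10.5, and fold enrichments from 2.29 to 4.38. Most were weak, with 33 of the 40 at the floor of −log10 q and 2 with a q of 0.05 or less. None of the 40 overlapped an HCT116 interval, and the nearest HCT116 interval was a median of 118 kb away (1.89 to 285 kb).

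Most LoVo intervals of chromosome 7 had low scores. There were 7 of the 141 (4.96%) with a q of 0.05 or less, where 27.9% of all autosomal LoVo intervals had this. At the floor of −log10 q stood 114 (80.9%), against 52.2% over the autosomes. Past 149 Mb, 2 of 100 passed the limit of 0.05 and 83 were at the floor. In HCT116, 9 of 116 (7.76%) passed it against 19.9% over the autosomes, and 35 (30.2%) were at the floor, against 25.3%. Outside runs the floor shares were closer. In LoVo they were 71.0% on chromosome 7, the pericentromere also left out, and 66.8% on the other autosomes. In HCT116 they were 31.0% and 30.8%. The shares with a q of 0.05 or less were then 12.9% and 15.2% in LoVo and 5.95% and 10.6% in HCT116. With runs kept and a −log10 q of at least 2 there remained 5 LoVo and 9 HCT116 intervals. The LoVo density of chromosome 7 was then 0.418 times that of the other autosomes. The excess of LoVo intervals on the chromosome was therefore carried by those with a −log10 q below 2, most of them at the floor. A −log10 q above 0 left 27 LoVo intervals on the chromosome, for which the density ratio was not computed.

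The local input background moved with position in LoVo. It is the number of input tags expected over one fragment length at a summit, recovered from the pileup and the fold enrichment, and cannot be lower than the genome-wide mean of 1.17 in LoVo and 1.25 in HCT116. Its median at LoVo summits was 1.21 on the short arm, 1.35 from 63 to 149 Mb and 1.69 past 149 Mb, where 8 of 100 summits were at the genome-wide mean. At HCT116 summits the medians were 1.26, 1.26 and 1.25, with 17 of 23 at the mean past 149 Mb. In PTPRN2 the LoVo median was 1.43, and it was 2.11 in the run over EN2. The median number of ChIP tags changed less, from 10 on the short arm to 9 in the middle and 11 at the end in LoVo. Over the LoVo intervals that did not overlap the other list, chromosome 7 had a median background of 1.52, at rank 6 of 22 autosomes. The part of the raised input in the number of intervals was not tested.

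**Figure D4:**
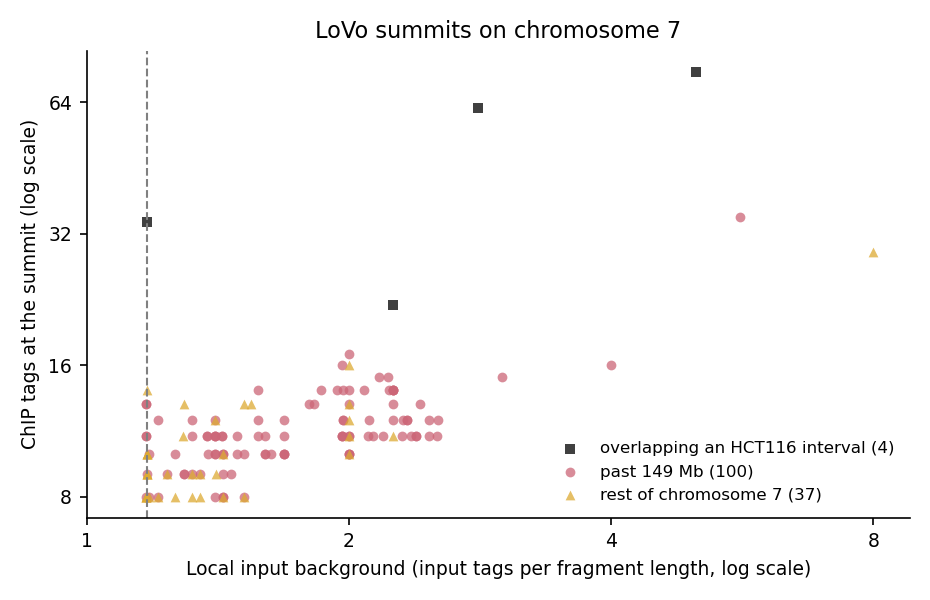
ChIP tags at the summit (y axis, log scale) against the local input background (x axis, input tags per fragment length, log scale) for the 141 LoVo intervals of chromosome 7, with the genome-wide mean of 1.17 dashed. The 4 intervals that overlapped an HCT116 interval have 22 to 75 tags, while those past 149 Mb have a median of 11 tags and mostly lie to the right of the mean.

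Few places on chromosome 7 were shared by the cell lines. In LoVo, 4 of the 141 met an HCT116 interval by at least 1 bp (2.84%, 1.11 to 7.07), against 35.1% over all autosomes. In HCT116, 4 of the 116 met a LoVo interval (3.45%, 1.35 to 8.53), against 8.99%. Outside runs, the pericentromere also left out, the LoVo shares were closer, at 9.68% on chromosome 7 and 13.8% on the other autosomes. In HCT116 the order turned, with 3.57% on chromosome 7 and 1.91% on the other autosomes. Each of these chromosome 7 shares rested on 3 intervals. Of the 4 overlaps on the chromosome, 3 lay side by side in the pseudogenes LOC100419985, LOC100533648 and LOC100419986, between 56370644 and 56373815 and so short of the 57 Mb boundary. By −log10 q they were the highest of the chromosome in both lists. Their tags were 34, 62 and 75 in LoVo and 17, 32 and 32 in HCT116, their −log10 q were 15.9, 26.0 and 25.4 in LoVo and 7.93, 23.8 and 13.8 in HCT116, and their summits lay 8, 7 and 25 bp apart. The last of the 4 lay in MUC12, with 22 tags and a −log10 q of 3.22 in LoVo and 10 tags and a −log10 q of 0.58 in HCT116, at summits 171 bp apart.

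After these, the highest LoVo interval was chr7:158336629-158337414 in PTPRN2 (35 tags, −log10 q of 2.995, on a background of 5.62). No other LoVo interval of the chromosome reached a −log10 q of 2. In HCT116 the ranks after the pseudogenes were tied at a −log10 q of 2.04 among 6 intervals. They included 2 between genes at 58 Mb inside the pericentromere, chr7:158147429-158147731 in PTPRN2, chr7:140535693-140535986 in DENND2A, chr7:136861228-136861487 near the muscarinic receptor gene CHRM2 and chr7:158989634-158989974 near LINC00689.

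Of the LoVo intervals of chromosome 7, 113 of 141 (80.1%) lay inside genes, where the share was 25.1% on the other autosomes. The share was 80.0% past 149 Mb and 80.5% on the rest of the chromosome. HCT116 had 74 of 116 in genes (63.8%) against 47.0%. The LoVo intervals in genes included the 40 of PTPRN2. The largest LoVo runs of the other autosomes had 17 of 97 in genes (chromosome 21), 4 of 47 (20), 16 of 42 (5) and 1 of 42 (10). How much of each sequence genes cover was not measured. Neither these shares nor the distances to start sites below can thus show a preference for genes. The median distance from an interval to the nearest start site was 28.2 kb in LoVo, against 111 kb on the other autosomes, and 31.9 kb in HCT116, against 56.4 kb. Within 1 kb of a start site lay 6 LoVo intervals (4.26%, against 1.59% on the other autosomes) and 9 HCT116 intervals (7.76% against 4.06%). An interval overlapped 3 of the 1779 promoters of chromosome 7 in LoVo, those of HOXA-AS3, KCNH2 and EN2-DT, where the share over the autosomes was 0.0148%. In HCT116 it was 6, those of FOXK1, LOC100996437, RABGEF1, PARP12, DYNC2I1 and LOC124901796, where the share over the autosomes was 0.202%.

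Of the 3061 annotated genes of chromosome 7, 62 overlapped a LoVo interval (2.03%), where 0.451% of autosomal genes did, and 64 overlapped an HCT116 interval (2.09%), where 2.37% did. After PTPRN2, the LoVo genes with most intervals were SSPOP, the SCO-spondin pseudogene, with 5, DPP6, an accessory subunit of Kv4 potassium channels, with 4, and the zinc finger gene ZNF467, WDR86 and VIPR2, a receptor of vasoactive intestinal peptide, with 3 each. A further 7 genes tied at 2 each, namely SUN1, IMPDH1, ZNF767P, MUC12, LOC100419985, ACTR3C and ABCB8, a mitochondrial transporter. SUN1, IMPDH1, MUC12 and LOC100419985 lie short of 149 Mb and the others past it. Among the genes past 149 Mb other than PTPRN2, the best −log10 q was 0 in ZNF467, WDR86, DPP6, VIPR2 and ACTR3C, 0.42 in ZNF767P, 0.95 in SSPOP and 1.10 in ABCB8.

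In HCT116, MUC3A, a membrane mucin of the intestine, and PTPRN2 had 4 each, and LOC105375431, the semaphorin co-receptor PLXNA4 and the histone methyltransferase gene KMT2C had 3 each. MAD1L1 of the mitotic checkpoint, LOC100419985, AUTS2, MKLN1 and CNTNAP2 had 2 each, as did PDE1C, a phosphodiesterase gene. KMT2C lies past 149 Mb, between LoVo runs, and held no LoVo interval. MUC3A, PLXNA4, AUTS2, MKLN1 and PDE1C held none either.

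Both lists had an interval in 13 genes, 21.0% of the LoVo genes and 20.3% of the HCT116 genes of the chromosome. The same shares over all autosomes were not counted, so these cannot be called high or low. Beside PTPRN2, MUC12 and the 3 pseudogenes, the 13 genes were MAD1L1, TNRC18, HOXA3, the tRNA-modifying enzyme gene TYW1, the ephrin receptor gene EPHB4, the T cell receptor locus TRB, CNTNAP2 and DYNC2I1. In these 8 genes no LoVo interval overlapped an HCT116 interval, and they had a best −log10 q of at most 0.57 in HCT116 and 0.11 in LoVo. CNTNAP2 had the highest LoVo background of the chromosome, 8.002, with 29 tags and a −log10 q of 0.

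Over all autosomal protein-coding genes, 4.68% held an HCT116 interval and 0.805% a LoVo interval, and on chromosome 7 the shares were 4.48% and 4.05%. Of 20 genes of the chromosome known in colorectal cancer or the gut, 4 held an HCT116 interval, namely EPHB4, MUC3A, MUC12 and KMT2C (20%), and 2 a LoVo interval, EPHB4 and MUC12 (10%). EPHB4, MUC3A and MUC12 lay in the same HCT116 run, and EPHB4 and MUC12 in the same LoVo run, so these genes are not separate places. The list was also chosen with earlier results of these data known, so its shares cannot show an excess. EGFR, MET, BRAF, CDK6 and EZH2 held none in either list. Of 28 genes of the cytoskeleton and migration, 2 held an HCT116 interval (7.14%), PTPRN2 and FLNC, which encodes filamin C, and 1 held LoVo intervals (3.57%), PTPRN2. These shares are near those of all coding genes of the chromosome, and ACTB, RAC1 and LIMK1 were among those without an interval. The 19 genes listed from the end of the long arm were chosen because earlier results had shown LoVo intervals there. The shares of this list thus describe that choice and cannot show an excess. Of the 19, 6 held a LoVo interval (31.6%), namely DPP6, the homeobox gene EN2, the co-chaperone gene DNAJB6, PTPRN2, DYNC2I1 and VIPR2. HCT116 intervals lay in 3 (15.8%), RBM33, PTPRN2 and DYNC2I1, and 12 of the 19 held none in either list, among them SHH and MNX1.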

How the data were processed

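The peak lists of HCT116 and LoVo were used, each called by the authors with MACS 2.1.0.20150420 from 1 ChIP and 1 input library (p-value cutoff 0.005, tags extended to 260 and 281 bp). The ChIP libraries had 16561424 and 19762814 filtered tags and the inputs 14962190 and 12925105. The deposited signal is the pileup of ChIP tags at the summit, scaled by the authors to the input. The fold enrichment that the authors deposited divides the pileup by the local background, each plus 1. The authors also deposited −log10 p and, as a score column whose header was damaged, −log10 q, identified by the MACS column order. The header of the peak lists says that q was not calculated, but the column holds values. Reading it as −log10 q is thus an inference. The aligner and genome build are not given in the sources used here, and positions were read as GRCh38 because unplaced sequences carry its names.

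Lines with equal chromosome, start and end were merged. Windows of 5 Mb, runs, overlaps of at least 1 bp, genes (RefSeq, GRCh38.p14) and promoters (250 bases before to 50 after a start site) were counted, and chromosome lengths were taken to the last annotated gene. Scripts were tested on simulated data. Tags were recovered by dividing the pileup by 0.903 (HCT116) or 0.654 (LoVo) and rounding. The named intervals were the 5 highest of each list. The named genes were PTPRN2, the 10 with most intervals in each list, those with intervals of both lists and members of 3 gene lists. The listed genes with no interval were named after their values were seen, as were genes tied with the last of the 10 and other genes in runs or at promoters. The members, lists and rules were chosen with earlier results of these data known. Intervals on rates and shares cover counting error only, and neighbouring intervals are not independent. The tools were Python 3.11.15, pandas 2.3.3, numpy 2.4.6, matplotlib 3.10.9 and scipy 1.17.1.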

Additional observations from a re-analysis of the deposited data

How the results depend on the processing

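Of 40 alternatives, 20 stayed within 1.5 times the reported count or ratio or within the interval of the reported share. Those that leave out 149 Mb to the end or the chromosome ends were chosen after seeing the data. A −log10 q of at least 2 left 9 HCT116 and 5 LoVo intervals on chromosome 7 and density ratios to the other autosomes of 0.265 and 0.418, so that the LoVo ratio turned below 1. Leaving out 149 Mb to the end, with the runs and ends of the other autosomes kept, turned the LoVo ratio to 0.915. Leaving out runs and the pericentromere turned the HCT116 ratio to 1.11. Without the chromosome ends as well, the ratios were 0.998 in HCT116 and 1.36 in LoVo. A −log10 q above 0 left 27 LoVo intervals, 17 LoVo genes, 28.1% of windows with a LoVo interval and 51.9% of LoVo intervals in runs, and a fold enrichment of at least 3 left 74 LoVo intervals. Protein-coding genes alone gave 42 in HCT116 and 38 in LoVo, and bodies extended by 5 kb gave 97 in HCT116. Windows of 2 and 10 Mb held a LoVo interval in 30% and 75%. Gaps of at most 250 kb and 1 Mb put 67.4% and 84.4% of LoVo intervals in runs. Beyond what each alternative leaves out or adds by construction, the cause was not tested. Overlaps between the lists stayed at 4. No paired analysis was possible because each group had 1 library. With 8 to 11 tags at a typical LoVo summit, single weak intervals depend on few tags.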
